A study of Mus musculus with 5 samples.

Results

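The comparison described here sets ovalbumin given with AEPS against ovalbumin given alone. AEPS is the root polysaccharide of Actinidia eriantha, a plant of the kiwifruit genus, and was tested as an adjuvant. The members are 2 of the series' 5 arrays, chosen by their injection: 25 µg ovalbumin (OVA, a model protein antigen) with 50 µg AEPS, and 25 µg OVA alone. The mice were female BALB/c, both injections were intraperitoneal, and total RNA was made from the cells washed out of the cavity 2 h later. The other 3 arrays, PBS (the vehicle), 50 µg AEPS, and 25 µg OVA mixed with alum at 200 µg, an adjuvant of aluminium salts, were taken at the same time after injection and are given as context. Each injection has 1 single-colour array, and the labels do not state the age of the mice or how many mice gave RNA to an array. There is therefore no replicate check and no test: every difference compares 2 arrays.

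An adjuvant is a substance that makes the immune response to an antigen given with it stronger. Within hours of an injection, the resident macrophages and other cells of the peritoneal cavity can sense microbial or other foreign material through receptors such as the Toll-like receptors and cytosolic nucleic acid sensors. Signals through NF-kB then raise chemokines and cytokines, and signals through IRF transcription factors raise type I interferons. Interferons bind their receptor on the same or neighbouring cells, and a complex of STAT proteins and IRF9 binds the interferon-stimulated response element (ISRE) in promoters and raises antiviral effector genes, which include the sensors themselves and negative regulators such as Usp18 and Socs1.

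A level is the log2 processed signal of a probe minus the log2 75th percentile of its array, so that 0 is the 75th percentile. A difference is the level with OVA+AEPS minus the level with OVA, so that 1 stands for 2-fold higher and -1 for 2-fold lower. Levels of different genes come from different probes and are not compared. For a gene clearly above background, the scanner's own error model gives a technical SE of 0.20 for a difference, and this error covers neither mice nor arrays. The precision is limited by the number of arrays. Of 55681 probes, the scanner flagged 59.3% as well above background with OVA and 58.2% with OVA+AEPS (56.7% to 60.0% over the 5 arrays). The defining markers of large peritoneal macrophages (Adgre1, Timd4, Gata6) and of B cells (Ms4a1, Cd79a), the main cells of this cavity, were well above background on each of the 5 arrays.

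The arrays also held spots that were bright on 1 array only. On the OVA array 628 spots were at least 2-fold above each of the other 4 arrays, and 56.9% of these had at least 2 such spots among the 8 adjacent ones. On the OVA+AEPS array the share was 52.2% of 602 spots and on the AEPS array 48.9% of 616 spots. It was 1.91% with PBS and 4.17% with OVA+Alum. Genes whose probe has at least 2 such adjacent spots on the OVA or the OVA+AEPS array are named as lying beside bright spots, and counts are also given without those spots. The neighbours' brightness alone decides this, so a spot is left out whatever its own value. A probe with several spots is named so if at least 1 of them lies there.

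Among 14904 genes whose probe was well above background on at least 1 of the 2 arrays, 608 (4.08%) had a level at least 2-fold higher with OVA+AEPS and 542 (3.64%) one at least 2-fold lower. Of the called genes 52.9% were thus higher. Scaled to spike-in control probes instead, 904 were higher and 376 lower, so that 70.6% of called genes were higher. The median difference of all measured genes was -0.02, with quartiles of -0.23 and 0.22. Many called genes were dim: 36.7% of the higher and 43.0% of the lower genes were not above background on 1 of the arrays, against 5.57% of all measured genes. Among the 14074 genes above background on both, 385 were higher and 309 lower, and 71 and 45 were at least 4-fold so. Without spots beside bright spots, 501 of 14342 genes (3.49%) were higher and 436 (3.04%) lower. The counts of list members given below stand beside the shares over all measured genes, 4.08% higher and 3.64% lower.

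**Figure D1:**
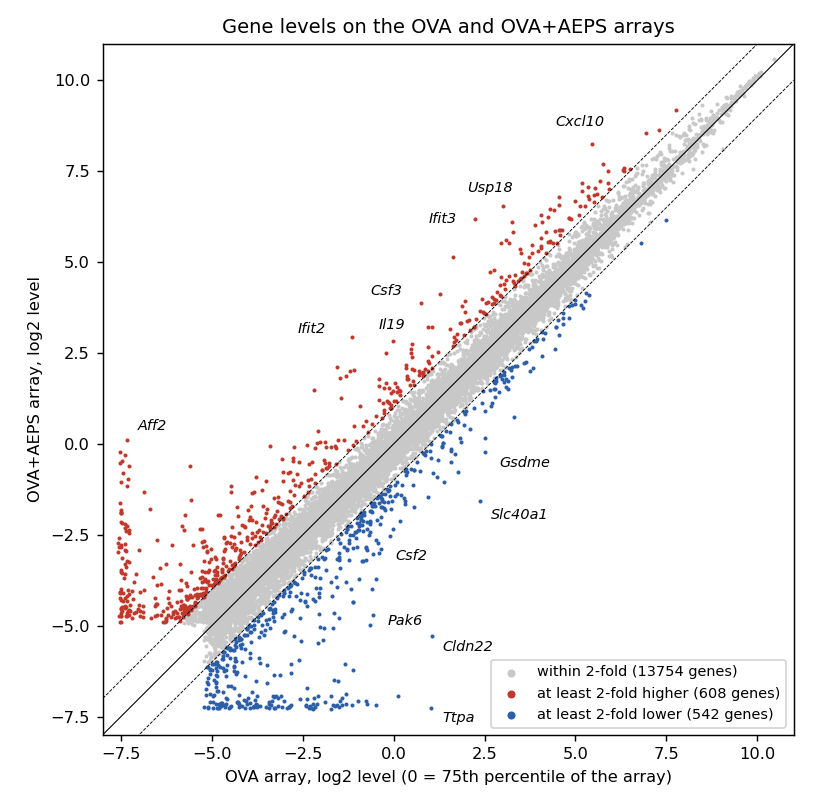
Level of each of the 14904 measured genes on the OVA array (x axis) and the OVA+AEPS array (y axis), both as log2 relative to the array's 75th percentile, with 1 array each. Red points (608 genes) are at least 2-fold higher and blue points (542 genes) at least 2-fold lower with OVA+AEPS, dashed lines mark 2-fold, and the bands at the lower and left edges are genes at background on 1 array.

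Interferon-stimulated genes were among the largest differences upwards. How many of them are named depends on the lists, which were chosen with earlier results of these data known. Of the 15 genes with the largest differences among those above background on both arrays, 6 belong to the lists of interferon genes: Ifit2, Ifit3, Ifit3b, Ifit1bl1, Usp18 and Tgtp1, the last from a probe beside bright spots. Ifit2 encodes an RNA-binding protein that restricts translation of viral RNA. Its level was -3.47 with PBS, 2.89 with AEPS, -1.14 with OVA, 2.95 with OVA+AEPS and -2.51 with OVA+Alum. It was thus 17.0-fold higher with OVA+AEPS than with OVA, a difference of 4.08 (technical SE 0.20), and the AEPS array stood at nearly the same level as the OVA+AEPS array. Ifit3, which joins Ifit1 and Ifit2 in a complex, had levels of 0.36, 6.17, 2.25, 6.19 and 1.53 in the same order of arrays, a difference of 3.94. Usp18, the protease that removes ISG15 from proteins and damps the interferon receptor, had levels of 1.60, 6.39, 3.01, 6.53 and 2.42, a difference of 3.52.

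The interferon genes themselves showed little difference between these arrays. Of 13 measured interferon genes, 1 was at least 2-fold higher and 1 lower, with a median difference of 0.13. Ifnb1, the interferon beta gene, had levels of -5.26 with PBS, -3.73 with AEPS, -3.29 with OVA, -3.08 with OVA+AEPS and -6.26 with OVA+Alum. Its difference of 0.21 (technical SE 0.24) did not exceed its technical error, and the AEPS, OVA and OVA+AEPS arrays stood above PBS and OVA+Alum. Ifna1 differed by 0.23 and Ifna2 by -0.09. The interferon alpha gene called higher, Ifna11, was at -5.13 with OVA and -3.79 with OVA+AEPS, both dim and both below its PBS level of -2.98. The gene called lower, Ifna4, was above background on the OVA array alone and lay beside bright spots there. The interferon alpha genes are near-identical copies, and a probe may bind several of them.

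Among 25 genes of the interferon receptors and their signalling, 3 were at least 2-fold higher and 0 lower. Irf7, which amplifies interferon alpha production, was at 1.58 with PBS, 3.54 with AEPS, 1.86 with OVA, 3.33 with OVA+AEPS and 1.82 with OVA+Alum, a difference of 1.48. Stat2, a transcription factor of the interferon response, differed by 1.33, and both its AEPS-containing arrays stood more than 1 log2 unit above the highest of the other 3. The receptor subunits stayed within 2-fold: Ifnar1 differed by -0.42, Ifnar2 by -0.08 and Ifngr1 by -0.25.

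Of the 57 measured antiviral effectors, 33 were at least 2-fold higher with OVA+AEPS and 0 were lower, with a median difference of 1.29 against -0.02 for all genes. Without spots beside bright spots the count was 32 of 56, and over the alternatives of processing it lay between 31 and 38. The 33 included the RNA-binding Ifit1 (3.25 with OVA, 6.11 with OVA+AEPS), Rsad2, whose product viperin makes a chain-terminating nucleotide (3.17 and 5.54), the RNA-activated kinase gene Eif2ak2 (0.50 and 2.76), and Xaf1 (2.76 and 4.78). Genes of the oligoadenylate synthetase family, some of which lead to activation of RNase L, lay near the list's median, with Oas1a at 1.21, Oas2 at 1.34 and Oasl1 at 1.33. Tor3a had 2 probes, which differed by 2.52 and 2.52. Of the Schlafen family, Slfn5 differed by 2.42, Slfn4 by 1.69 and Slfn8 by 1.63, the last from a probe beside bright spots. Cmpk2, a nucleotide kinase gene, differed by 2.83 from a probe beside bright spots on the OVA array, and by 2.94 on its second probe. The Ifit, Slfn, Phf11 and Oas genes have near-identical copies, so the value of a single copy is uncertain.

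OVA alone already stood above PBS for many of these genes. Ifit1 was at 0.65 with PBS and 3.25 with OVA, Oasl1 at 4.85 and 7.29, and Isg15 at 5.94 and 7.77. For these genes the OVA+AEPS array lay above an OVA array that was itself high, and the median level of the 57 effectors was 2.71 with PBS, 5.06 with AEPS, 3.30 with OVA, 5.14 with OVA+AEPS and 3.06 with OVA+Alum. On the slide the PBS array lay in another row than the other 4, and that row cannot be told apart from the PBS injection.

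**Figure D2:**
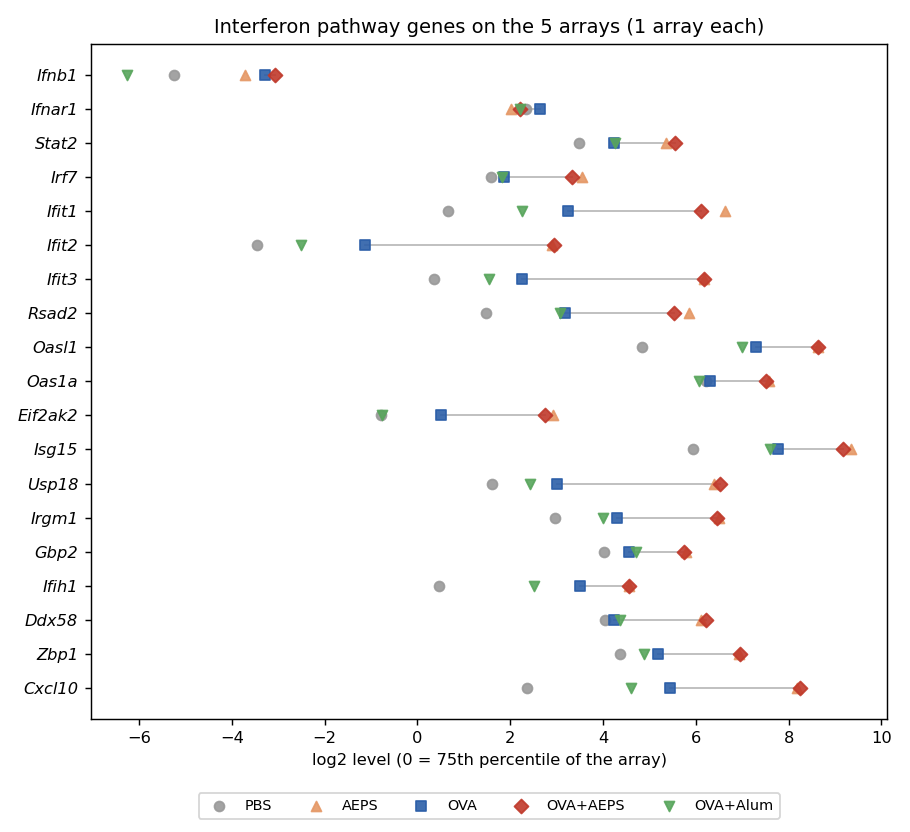
Log2 levels of 19 genes of the interferon pathway on the 5 arrays (symbols, 1 array each), with a grey line from the OVA to the OVA+AEPS value. For the effectors, sensors and GTPases shown, the AEPS and OVA+AEPS symbols lie together above the other 3, while Ifnb1 and Ifnar1 have no such gap (differences of 0.21 and -0.42).

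ISG15 is a ubiquitin-like protein that is coupled to other proteins during the interferon response. Of 21 measured genes of ISG15 and ubiquitin-like conjugation, 14 passed 2-fold upwards and 0 downwards, with a median difference of 1.26. Isg15 itself was at 5.94 with PBS, 9.35 with AEPS, 7.77 with OVA, 9.18 with OVA+AEPS and 7.61 with OVA+Alum. Its difference of 1.42 came from the brighter of 2 probes, and the second gave 1.71. The ligase gene Herc6 differed by 1.88 and 1.96 on its 2 probes, Parp12 by 2.18 and Dtx3l by 1.38. Uba7, the activating enzyme of ISG15, was within 2-fold (4.13 with OVA and 4.36 with OVA+AEPS).

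Interferon-inducible GTPases attack the vacuoles of intracellular microbes. Of 18 measured, 12 passed 2-fold upwards and 1 downwards, with a median difference of 1.09. Without spots beside bright spots the counts were 11 and 1 of 17, and with arrays scaled to their medians 8 members were higher. Irgm1 was at 2.95 with PBS, 6.50 with AEPS, 4.31 with OVA, 6.46 with OVA+AEPS and 3.99 with OVA+Alum, and its 2 probes both differed by 2.15. Irgm2 differed by 1.90, Tgtp2 by 2.22, Gbp2 by 1.18 and Gbp4 by 1.35. Tgtp1 had the largest difference of the list, 3.33, but its probe lay beside bright spots on the OVA+AEPS array and its sequence is close to that of Tgtp2. The 1 lower gene, Irgc1, was above background on the OVA array alone.

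Of 21 measured nucleic acid sensors, 8 passed 2-fold upwards and 0 downwards, with a median difference of 0.62. Both cytosolic RNA sensors were among them: Ddx58, which encodes RIG-I, was at 4.23 with OVA and 6.23 with OVA+AEPS, and Ifih1, which encodes MDA5, at 3.51 and 4.57. Ifih1 stood at 0.47 with PBS, so that most of its distance from PBS was already present with OVA. Dhx58 differed by 1.89, the Z-nucleic acid sensor Zbp1 by 1.77, Ifi204 by 2.04, Ifi209 by 2.29 and Ifi213 by 2.50. Tlr3, the endosomal receptor for double-stranded RNA, was dim on both arrays (-5.07 and -3.24) and differed by 1.83 (technical SE 0.36).

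Promoter sequences are shown because the genes that were high on both AEPS arrays often carry the ISRE. The window searched was 250 bases before to 50 bases after each annotated start (RefSeq, mouse assembly GRCm38.p6), and the ISRE was searched on both strands as GAAA, any 2 bases and GAAA (TTTC, any 2 bases and TTTC on the other strand). Windows on 1 chromosome were left out of the stretches shown, and genes with no window, such as Usp18 and Csf3, could not be shown. The remaining genes at least 2-fold above PBS, OVA and OVA+Alum on both AEPS arrays were ordered by difference, largest first. The 8 stretches below belong to the first of these with an ISRE match before the start. They are written 5′ to 3′ on the gene's strand, with the matches in capitals and up to 30 bases on each side.
Ifit3: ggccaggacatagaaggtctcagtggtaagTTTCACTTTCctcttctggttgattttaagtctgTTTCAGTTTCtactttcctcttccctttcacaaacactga
Ifit3b: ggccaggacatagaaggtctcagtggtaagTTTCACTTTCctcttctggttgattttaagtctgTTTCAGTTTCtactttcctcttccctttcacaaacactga
Tgtp1: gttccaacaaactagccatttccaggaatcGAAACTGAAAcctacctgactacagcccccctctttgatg
Ifit1bl1: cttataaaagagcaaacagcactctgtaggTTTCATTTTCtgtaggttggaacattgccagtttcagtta
Ifit1: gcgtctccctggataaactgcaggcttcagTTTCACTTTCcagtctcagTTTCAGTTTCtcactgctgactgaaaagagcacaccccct
Il19: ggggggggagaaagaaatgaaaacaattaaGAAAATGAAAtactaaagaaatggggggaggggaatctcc
Cxcl10: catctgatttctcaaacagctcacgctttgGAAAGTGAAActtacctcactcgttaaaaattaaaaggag
Ifi214: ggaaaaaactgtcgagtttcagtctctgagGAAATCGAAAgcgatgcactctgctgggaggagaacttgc
The Ifit3 stretch (chr19:34583343-34583446 (+ strand)) and the Ifit3b stretch (chr19:34607739-34607842 (+ strand)) are identical over their 104 bases, with matches that begin 156 and 122 bases before the start of Ifit3. Ifit1 (chr19:34640755-34640843 (+ strand)) also holds 2 matches, 104 and 85 bases before its start. The other 5 hold 1 match: Tgtp1 (chr11:48992284-48992353 (- strand)), Ifit1bl1 (chr19:34602033-34602102 (- strand)), Il19 (chr1:130940183-130940252 (- strand)), Cxcl10 (chr5:92349063-92349132 (- strand)) and Ifi214 (chr1:173535997-173536066 (- strand)). Il19 is a cytokine gene of the interleukin 10 family. In Cxcl10 the match begins 213 bases before the start.

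Over all 32851 windows of the table, 3.44% held an ISRE match, and of the 11886 measured genes with a window 3.83% did. Among the 471 genes with a window that were at least 2-fold higher with OVA+AEPS, 61 held one, and among the 413 lower genes 19 (4.6%). The 127 genes with a window that were high on both AEPS arrays held it in 42 cases (33.1%), and the 110 that were high on the OVA+AEPS array alone in 3 (2.73%). Of the antiviral effectors, 15 of the 31 higher members with a window held a match (48.4%), as did 22 of all 51 measured members with a window (43.1%). An AP-1 match (TGANTCA, either strand) was found in 7.06% of the measured genes, 12.5% of the higher genes, 9.93% of the lower genes and 19.7% of those high on both AEPS arrays. A kappaB-like match (GGGA, any base, TT, any base and CC) was found in 1.62% of the measured and 1.91% of the higher genes, and a CRE match (TGACGTCA) in 3.2% and 2.34%. These letters are a description of the windows and show no binding, and the near-identical promoters of gene families are counted once for each gene. The windows of Ifit2, Irf7 and Slc10a6 hold no ISRE match of these letters.

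Some chemokines that attract T cells, monocytes and neutrophils were higher with OVA+AEPS. Cxcl10, an interferon-induced attractant of activated T cells and NK cells, was at 2.35 with PBS, 8.17 with AEPS, 5.45 with OVA, 8.24 with OVA+AEPS and 4.60 with OVA+Alum, a difference of 2.79. Cxcl9, another ligand of the same receptor, was at 0.41 with OVA and 0.72 with OVA+AEPS, within 2-fold on both its probes, and the receptor Cxcr3 was lower (a difference of -1.43). Of 12 measured monocyte-recruiting chemokines and receptors, 4 were higher and 1 lower, against 4.08% and 3.64% of all measured genes. Ccl7 was at 2.60 with PBS, 5.47 with AEPS, 2.95 with OVA, 5.51 with OVA+AEPS and 3.30 with OVA+Alum, a difference of 2.57. Ccl3 differed by 1.63, Ccl4 by 1.62 and Ccl2 by 1.37, and each of these 4 ligands was at least 2-fold higher on both AEPS arrays than on the other 3. The receptor of Ccl2 and Ccl7, Ccr2, which marks inflammatory monocytes, was the lower member (1.57 with OVA and -0.14 with OVA+AEPS, a difference of -1.71).

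Of 6 measured neutrophil-recruiting chemokines and receptors, 3 were higher and 1 lower. Cxcl3 differed by 1.65, Cxcl2 by 1.28 and Cxcl5 by 1.11, and Cxcl1 was within 2-fold (7.65 and 8.55). The OVA+Alum array lay between the other 2 for Cxcl3 (5.02) and Cxcl2 (6.03), so that these ligands did not separate the AEPS arrays from all others by 2-fold. The receptor Cxcr1 was lower, with levels of -1.06 with PBS, -0.93 with AEPS, 0.32 with OVA, -1.58 with OVA+AEPS and 1.12 with OVA+Alum. Of the 30 other chemokines and receptors measured 2 were higher (6.67%) and 2 lower, with a median of -0.09. These counts are near the 4.08% higher and 3.64% lower of all measured genes. Ccrl2, a receptor that presents chemerin, differed by 1.29 and Ccr8 by 1.24, while Cx3cr1 and Cxcr6 were lower (differences of -1.24 and -1.21).

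Csf3 had the largest difference among cytokine genes above background on both arrays. It encodes G-CSF, which drives the production and release of neutrophils. Its level was 1.38 with PBS, 3.83 with AEPS, 0.75 with OVA, 3.89 with OVA+AEPS and 2.56 with OVA+Alum, an 8.82-fold difference from OVA. The other colony-stimulating factors did not share this: Csf1 was within 2-fold (-0.47), and Csf2, which encodes GM-CSF, was lower (a difference of -2.55), and the OVA array (-0.35) stood above all others (-2.20, -2.65, -2.90 and -3.00 for PBS, AEPS, OVA+AEPS and OVA+Alum).

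Of 9 genes of the interleukin 10 family 3 were higher and 0 lower, and of 6 of the interleukin 12 family 2 were higher and 0 lower. Over all measured genes the shares were 4.08% higher and 3.64% lower. Il19 was at -1.57 with PBS, 2.75 with AEPS, -0.01 with OVA, 2.82 with OVA+AEPS and -0.19 with OVA+Alum, and its 2 probes differed by 2.83 and 2.66. Il10, the main anti-inflammatory cytokine of macrophages, was at -0.93 with OVA and 1.04 with OVA+AEPS, a difference of 1.97, with PBS at -0.44 and AEPS at 1.42. Il23a, the p19 subunit of interleukin 23, differed by 2.32 and Il27 by 1.34, while Il12a was within 2-fold (0.64). Of 14 genes of the interleukin 6 family, 3 were higher and 0 lower. Il6 was at 4.15 with PBS, 5.63 with AEPS, 4.06 with OVA, 5.44 with OVA+AEPS and 2.08 with OVA+Alum, a difference of 1.38. Lif was above background on the OVA+AEPS array but not on the OVA array and was at least 7.89-fold higher, and its AEPS level (-5.49) was below its PBS level (-3.82).

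The classical early inflammatory cytokines showed smaller differences. Il1b was at 8.43 with OVA and 8.35 with OVA+AEPS, Tnf at 4.81 and 5.31, and Il1a at 1.83 and 2.62. The Il1b and Tnf probes have 10 spots each, at least 1 of which lay beside bright spots on the OVA+AEPS array. Of all measured genes 4.08% were higher and 3.64% lower, and the list counts of this paragraph stand beside those shares. Of 13 measured genes of the interleukin 1 family, 2 were higher and 0 lower. Il33, an alarmin of stromal cells, was at -5.84 with PBS, 0.07 with AEPS, -2.24 with OVA, -0.50 with OVA+AEPS and -0.96 with OVA+Alum, a difference of 1.74, and the receptor Il1r1 differed by 1.44. The decoy ligand Il1rn was just inside 2-fold, at 0.99. Of 35 genes of the tumour necrosis factor superfamily, 3 were higher (8.57%) and 1 lower, with a median of -0.005. Tnfsf9, the ligand of the T cell co-receptor 4-1BB, was at 1.54 with PBS, 4.28 with AEPS, 2.65 with OVA, 4.72 with OVA+AEPS and 2.68 with OVA+Alum. Tnfsf15 differed by 2.05, Tnfsf10, which encodes TRAIL, was at -0.03 with OVA and 1.47 with OVA+AEPS, and Tnfsf14 was lower (a difference of -1.52). Of 22 T helper and gamma-chain cytokine genes and receptors, 3 were higher and 3 lower. Il15 differed by 1.16, its receptor Il15ra by 1.15 and Il2ra by 1.28, whereas Il4 was within 2-fold (-0.25) and Il13 was lower (a difference of -1.08). The gene Il9 was called lower from a probe beside bright spots on the OVA array.

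Of 24 peptide growth factors 6 were higher and 1 lower, and of 30 matrix protease and coagulation genes 6 were higher and 1 lower, against 4.08% and 3.64% of all measured genes. With normexp background correction the higher members were 4 and 3, against 1.82% of all genes. Of 13 endothelial markers 0 were higher and 2 lower, among them Vwf (-1.23), the von Willebrand factor gene. Edn1, which encodes the vasoconstrictor endothelin, was at -3.81 with PBS, 2.13 with AEPS, 0.94 with OVA, 2.66 with OVA+AEPS and -0.97 with OVA+Alum, a difference of 1.72. The activin antagonist Fst differed by 1.65, Hbegf by 1.23 and Adm by 1.06, and Ereg was at least 2.24-fold higher. F3, the tissue factor that starts coagulation, was at 0.77 with PBS, 1.76 with AEPS, -0.41 with OVA, 1.61 with OVA+AEPS and 1.74 with OVA+Alum. Its 2 probes differed by 2.01 and 2.25, and here the OVA array stood below all 4 others. Sele, the endothelial adhesion molecule E-selectin, was not above background with OVA and was at least 5.78-fold higher with OVA+AEPS. Pdgfb and the gelatinase gene Mmp9 were lower (differences of -1.36 and -1.18).

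Genes of the receptors and of the signalling steps before these outputs mostly stayed within 2-fold, as did 92.3% of all measured genes. Of 36 Toll-like and C-type lectin receptors, a list without the nucleic acid sensors such as Tlr3, 0 were higher and 2 lower (Tlr5 and Tlr11, both not above background with OVA+AEPS). Tlr2 was at 5.88 with OVA and 6.41 with OVA+AEPS, and Tlr4 at 1.90 and 1.86. The Tlr2 probe has 10 spots and the Tlr4 probe 2, and at least 1 spot of each lay beside bright spots on 1 of these arrays. Of 29 genes of Toll-like receptor signalling, 0 were higher and 1 lower. Of 29 NF-kB genes, 2 were higher and 0 lower, both inhibitors or co-regulators that NF-kB itself induces: Nfkbiz differed by 1.48 and Tnfaip3 by 1.26. The median of that list was 0.33, and Rela (0.06) and Relb (0.29) were within 2-fold. Of 33 inducible brakes on signalling, 5 were higher and 3 lower. Socs1, which blocks interferon receptor signalling, was at 3.57 with PBS, 5.77 with AEPS, 4.08 with OVA, 6.10 with OVA+AEPS and 4.76 with OVA+Alum, and the checkpoint ligand gene Cd274 differed by 1.24. The phosphatase genes went both ways, with Dusp1 at 1.32 and Dusp2 at 1.17 higher and Dusp6 at -1.24 lower.

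Immediate early transcription factors went both ways, with 5 of 35 higher (14.3%) and 5 lower, against 4.08% and 3.64% of all measured genes. Scaled to spike-in control probes, 6 were higher and 2 lower. The higher ones were Myc (4.05 with OVA and 5.67 with OVA+AEPS), Batf2 (1.55 and 3.15), Atf3 (1.22 higher), Maff (1.15 higher) and Mafk (1.01 higher). The lower ones included Egr1, an early target of growth factor signalling, at 4.89 with PBS, 3.52 with AEPS, 5.22 with OVA, 3.74 with OVA+AEPS and 6.17 with OVA+Alum, together with Egr2 (-1.09), Klf10 (-1.47), Id1 (-1.22) and Hes1 (-1.03).

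Most antigen presentation genes were within 2-fold, as were 92.3% of all measured genes. Of 22 genes of class I presentation 2 were higher and 0 lower: Tap1, a peptide transporter subunit, at 1.21 with OVA and 2.52 with OVA+AEPS, and H2-T24, whose 2 probes differed by 1.20 and 1.17. The classical H2-K1 and H2-D1 differed by 0.13 and 0.14. Of 14 class II genes 0 passed 2-fold in either direction, and they lay between -0.28 and 0.53. Of 25 co-stimulation genes 5 were higher and 2 lower. The activation marker Cd69 was at 0.48 with OVA and 2.50 with OVA+AEPS, Cd86 at 2.71 and 2.96, Cd80 at 2.74 and 2.97, and Cd40 at 4.30 and 4.62.

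Of 19 genes of nitric oxide, arginine, itaconate and tryptophan metabolism, 4 were higher and 0 lower, against 4.08% and 3.64% of all measured genes. Nos2, the inducible nitric oxide synthase, was at 3.33 with OVA and 4.35 with OVA+AEPS, Gch1, which makes its cofactor, at 5.52 and 6.65, and Ch25h, which makes an antiviral oxysterol, at 0.35 and 2.18. The fourth was Cmpk2, described above. Of 27 glycolysis and hypoxia genes 1 was higher and 3 lower. Pfkfb3 was at 5.93 with OVA and 7.02 with OVA+AEPS, and the lactate exporter gene Slc16a3, the glucose transporter gene Slc2a3 and Bnip3 were lower (differences of -1.26, -1.06 and -1.01). These 3 were highest on the OVA+Alum array (7.57, 5.10 and 2.74).

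Among genes above background on both arrays, Slc40a1 had the largest difference downwards that did not lie beside bright spots. It encodes ferroportin, the iron exporter of macrophages. Its level was 0.51 with PBS, -0.88 with AEPS, 2.39 with OVA, -1.57 with OVA+AEPS and 2.995 with OVA+Alum, which is 15.5-fold lower with OVA+AEPS than with OVA. Both AEPS arrays thus lay below PBS, and both other OVA arrays above it. Hamp, which encodes hepcidin, the peptide that makes ferroportin be degraded, was dim. It was not above background with OVA, stood at -4.13 with OVA+AEPS and was at least 2.17-fold higher. Lcn2, which binds bacterial iron carriers, was at 5.90 with OVA and 7.18 with OVA+AEPS. Of 28 iron and metal genes 2 were higher and 1 lower, against 4.08% and 3.64% of all measured genes, and Hmox1 was within 2-fold (0.45). With normexp background correction 1 was higher and 1 lower.

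Arl11 and Gad1 were also at least 2-fold lower on both AEPS arrays than on the other 3. Arl11, a small GTPase, was at -1.48 with PBS, -3.90 with AEPS, -1.11 with OVA, -4.34 with OVA+AEPS and -0.32 with OVA+Alum. Gad1, a glutamate decarboxylase, was at -1.71, -2.83, -0.48, -3.71 and -0.22 in the same order. For both genes the OVA+AEPS array was the lowest. Gsdme, which encodes a pore-forming gasdermin, was at 0.78 with PBS, 0.17 with AEPS, 2.50 with OVA, -0.23 with OVA+AEPS and 3.40 with OVA+Alum, a difference of -2.73. Here too both AEPS arrays lay below PBS, and the OVA and OVA+Alum arrays above it. For C5ar2 (-1.68 and -1.72 on 2 probes), Cxcr1, Tnfsf14 and Mpo (-1.37) OVA+Alum was likewise the highest array and OVA+AEPS the lowest, but the AEPS array lay above PBS for Cxcr1, Tnfsf14 and Mpo. Gata6, which sets the identity of large peritoneal macrophages, was at 2.20 with PBS, 0.81 with AEPS, 1.96 with OVA, 0.83 with OVA+AEPS and 0.82 with OVA+Alum, a difference of -1.13, and so was as low with OVA+Alum as on the AEPS arrays.

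**Figure D3:**
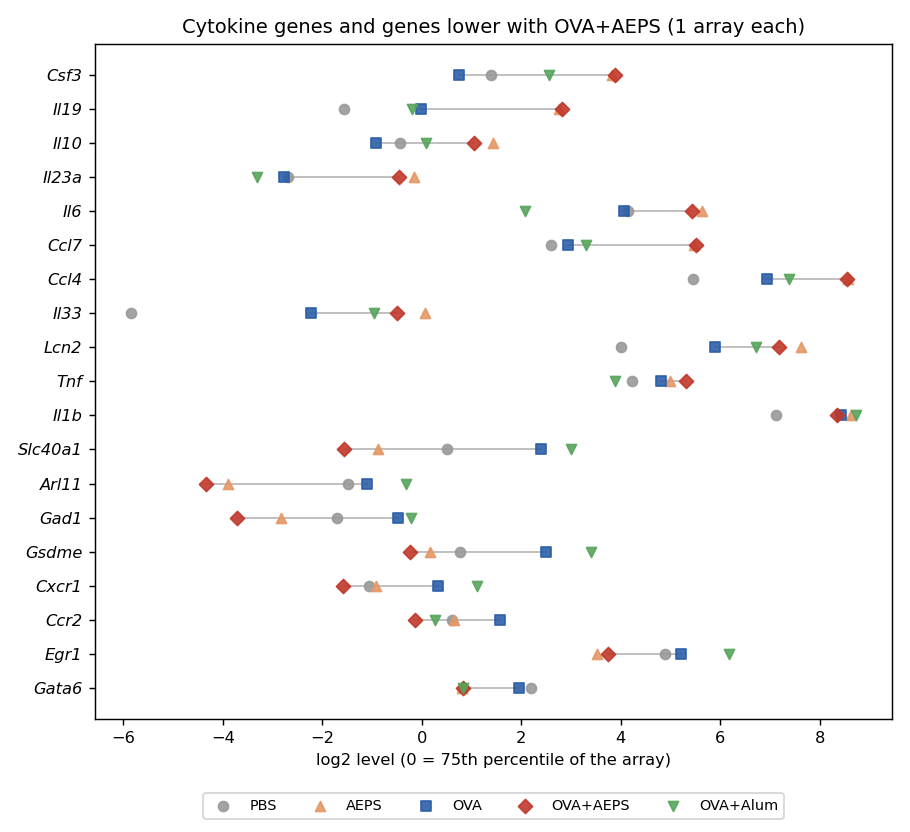
Log2 levels of 11 cytokine, chemokine and acute response genes and of 8 genes lower with OVA+AEPS on the 5 arrays (symbols, 1 array each), with a grey line from the OVA to the OVA+AEPS value. Csf3, Il19, Il23a and Ccl7 show both AEPS symbols to the right of the other 3, and Slc40a1, Arl11, Gad1 and Egr1 show them to the left.

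Markers of the cells that a lavage can hold were mostly within 2-fold between the arrays, like the 92.3% of all measured genes that were. In RNA from a mixture, fewer cells of a type and less RNA per cell cannot be told apart. Of 31 large peritoneal macrophage markers 0 were higher and 1 lower (median 0.07), of 25 B cell markers 0 were called (median 0.09), and of 16 housekeeping genes 0 (median 0.08), with Actb at 0.17 and Gapdh at -0.11. T cell markers were shifted slightly and together: of 26, 0 passed 2-fold but 23 were below 0 and 3 above, with a median of -0.40. Cd3e was at 4.11 with OVA and 3.85 with OVA+AEPS, Cd3d at 4.07 and 3.59, and Cd3g at 2.76 and 2.18. NK cell markers had a median of -0.52, with 1 of 25 higher and 3 lower. The median level of this list was 0.45 with PBS, 1.32 with AEPS, 1.265 with OVA, 0.55 with OVA+AEPS and 0.82 with OVA+Alum. With AEPS against PBS the median difference was 0.74 for the NK cell list and -0.18 for the T cell list. Ncr1, the NK receptor NKp46, was at 1.17 with PBS, 1.32 with AEPS, 1.73 with OVA, 0.67 with OVA+AEPS and 0.95 with OVA+Alum, whereas Gzmb, the gene of the killing protease granzyme B, was higher by 1.36. The median differences of OVA+AEPS minus OVA stayed below 0 under the alternatives of processing. They lay between -0.51 and -0.18 for T cells and between -0.63 and -0.30 for NK cells.

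Of 19 markers of small peritoneal macrophages and dendritic cells 0 were higher and 4 lower: Clec9a (-1.84), Ccr2 (-1.71), Itgax (-1.29) and Flt3 (-1.18). The median of the list was -0.24, and 8 of the 19 were above 0. Its defining markers other than Flt3 were not lower: Cd209a differed by 0.04 and Zbtb46 by 0.96. The dimmer Zbtb46 probe went the other way, by -0.97. Neutrophil markers had 2 of 32 higher and 4 lower, with a median of 0.12. The granule and calcium-binding genes S100a8 and S100a9 were at 9.41 and 9.81 with OVA and 9.42 and 9.92 with OVA+AEPS. Mesothelial and stromal markers had a median of 0.48, with 20 of 22 above 0 and 2 at least 2-fold higher. The defining mesothelial markers Upk3b (-3.20 with OVA and -2.26 with OVA+AEPS), Upk1b (-4.53 and -3.98) and Msln (0.05 and 0.46) were within 2-fold, and the median level of the list was -1.07 with PBS, -0.58 with AEPS, -0.95 with OVA, -0.39 with OVA+AEPS and 0.36 with OVA+Alum. Il33 and F3, described above, were higher in the same direction as these markers, and the part of these cells in those values was not tested. Haemoglobin genes, a sign of blood in the lavage, differed by 0.84 for Hba-a1, 0.69 for Hbb-bs and 0.17 for Hba-a2, and the 21 erythroid and platelet markers had a median of 0.10.

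**Figure D4:**
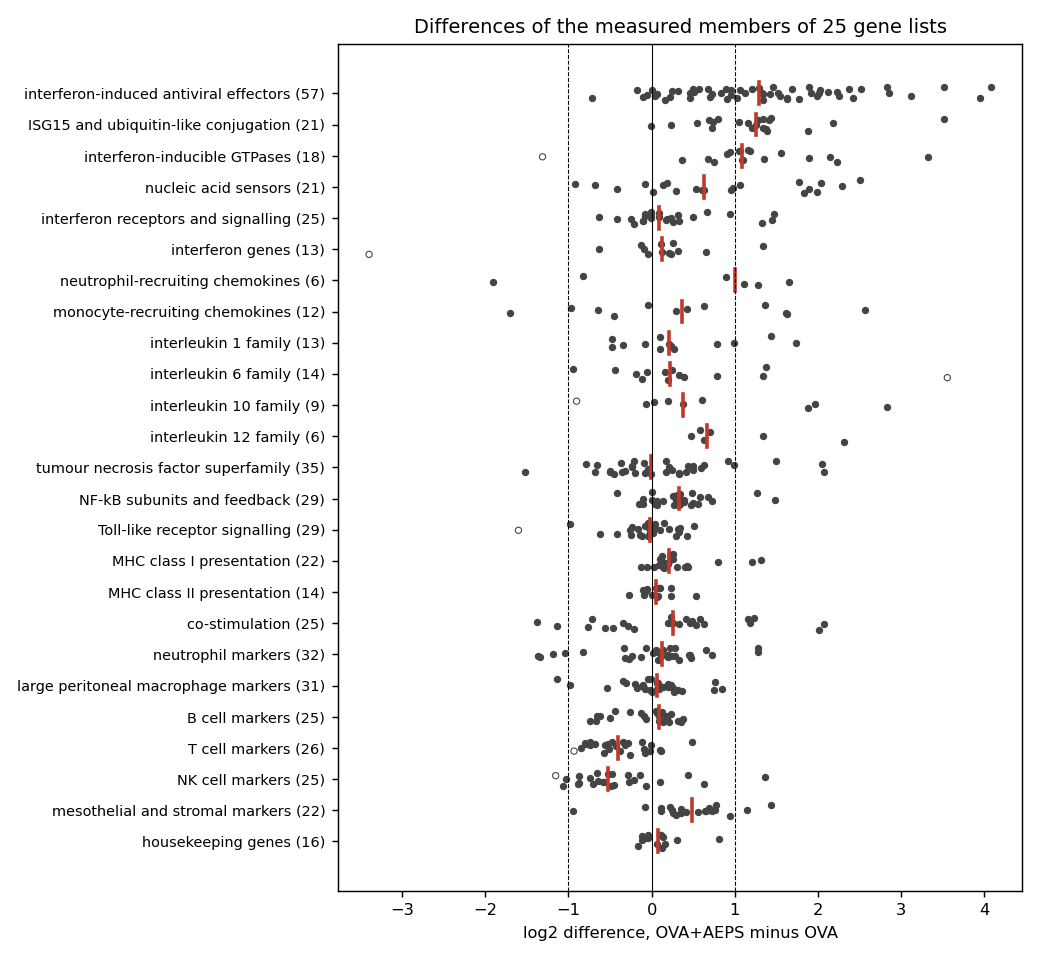
Log2 difference, OVA+AEPS minus OVA, of each measured member (points) of 25 gene lists, with the number measured in brackets, the list's median as a red bar and 2-fold as dashed lines. Open points are genes not above background on 1 of the arrays. The interferon effector, ISG15 and GTPase lists have medians of 1.29, 1.26 and 1.09, the T cell and NK cell lists of -0.40 and -0.52.

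The other 3 arrays divide the called genes. Of the 608 higher genes, 167 were at least 2-fold above PBS, OVA and OVA+Alum on both the AEPS and the OVA+AEPS array. Of these, 64 belong to the 6 lists of interferon and sensor genes and 75 to no list. Those 6 lists had 57, 25, 21, 21, 18 and 13 measured members, among 14904 measured genes. The 75 are not all outside the interferon response: Oas1f, Phf11c and Ifi214 are in no list but belong to families that the lists hold. Among those outside the lists were Slc10a6, a transporter of steroid sulfates (-2.19 with OVA and 1.49 with OVA+AEPS, with differences of 3.68 and 3.43 on 2 probes), and Rilpl1 (-1.20 and 1.99, with 3.19 and 3.80). Of the 167, 13 (7.78%) lay beside bright spots on the OVA or OVA+AEPS array, against 5.15% of all measured genes. The rule counts neighbours bright on 1 array only, so it cannot show neighbours raised on both AEPS arrays. Clusters on the AEPS array are not counted here either. Of the 39 genes with a further probe above background, 35 had one that was also at least 2-fold higher. Among the 542 lower genes, 82 were at least 2-fold below the other 3 arrays on both AEPS arrays. They included Slc40a1, Arl11, Gad1, Egr1, Cebpe, Flt3, Vsir and 6 genes of the kallikrein 1 family, near-identical copies led by Klk1 (-1.72). Of these 82 genes 2 (2.44%) lay beside bright spots, and 7 of the 16 with a further probe had one at least 2-fold lower.

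Many called genes stood apart on 1 array. On the OVA+AEPS array 145 higher genes stood at least 2-fold above all 4 others, 4 of which are also among the 167 above, and on the OVA array alone 161 of the lower genes did. Of these, 81 (55.9%) and 87 (54.0%) lay beside bright spots. Few had a further probe above background: 5 of the 145, of which 1 was also at least 2-fold higher, and 6 of the 161, of which 1 was also at least 2-fold lower. Among the 15 largest differences upwards 6 lay beside bright spots (Smo, Tgtp1, Txndc2, Gas1, Hnf4aos and Zfp459), and among the 15 largest downwards another 6 (Pak6, Dnajc5b, Gp1bb, Myof, Dppa4 and Prkar1b). Smo, the signal transducer of the Hedgehog pathway, was at -1.56 with OVA and 2.12 with OVA+AEPS on its brighter probe, a difference of 3.68, while its second probe differed by -0.30. The Hedgehog co-receptor gene Gas1 differed by 3.30 and, on a second probe not above background with OVA, by 1.18. Dppa4 differed by -2.84 and, on a second probe not above background with OVA+AEPS, by -0.18.

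Genes above background on a single array gave larger values still. Ttpa was at least 65.2-fold and Cldn22 at least 65.5-fold lower with OVA+AEPS, and Aff2 at least 40.4-fold and Fank1 at least 32.7-fold higher. All 5 of the largest such bounds downwards and 4 of the 5 upwards lay beside bright spots, Aff2 being the exception. Kirrel (-3.30) did not lie beside bright spots, but its second probe differed by 1.40, in the opposite direction. The part of the bright spots in these single values was not tested.

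**Figure D5:**
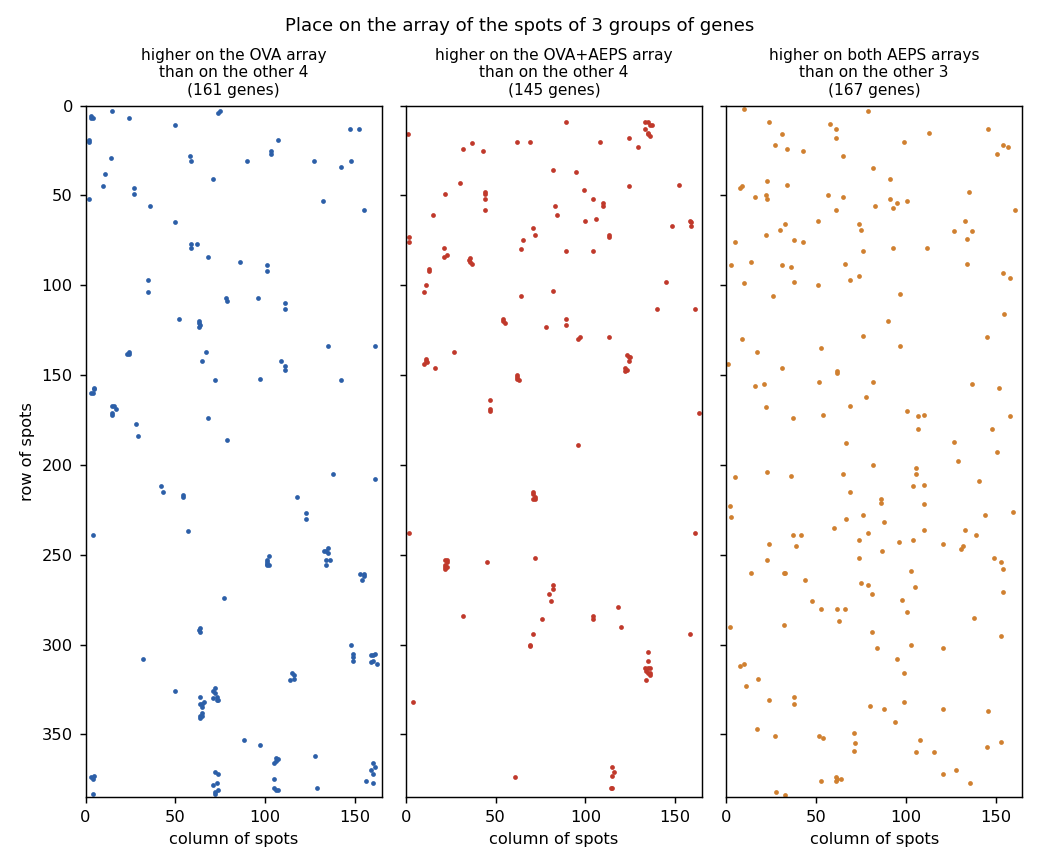
Place on the array (row and column of spots) of the spots of 3 groups of genes: 161 genes whose OVA value exceeds the other 4 at least 2-fold, 145 whose OVA+AEPS value does, and 167 for which both AEPS arrays exceed the other 3. Many spots of the first 2 groups lie in small clusters, and few of the third do.

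AEPS given without OVA can be set beside this comparison, since the AEPS and PBS arrays are other arrays than the 2 compared here. Of 14936 genes measured there, 1299 (8.7%) had levels at least 2-fold above PBS with AEPS and 1029 (6.89%) below it. The comparisons had 263 higher genes in common, which is 43.3% of those higher with OVA+AEPS and 20.2% of those higher with AEPS. They had 156 lower genes in common, 28.8% of those lower with OVA+AEPS and 15.2% of those lower with AEPS. The median difference of the antiviral effectors was 1.73 for AEPS against PBS and 1.29 for OVA+AEPS against OVA, and that of the interferon-inducible GTPases 2.49 and 1.09. For neutrophil markers the medians were 1.79 and 0.12. In these 3 lists the OVA array stood above the PBS array, with median levels of the neutrophil markers of 3.53 with PBS, 5.75 with AEPS, 5.20 with OVA, 5.39 with OVA+AEPS and 5.99 with OVA+Alum. No test of the difference between the comparisons can be made with 1 array in each group.

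Probes that matched no RefSeq gene symbol also differed. Of 14928 such probes measured, 1010 were at least 2-fold higher and 741 lower. Among the 7642 of them that the array design names by a genomic interval, 603 were higher and 404 lower. They are not named here.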

How the data were processed

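RNA of peritoneal lavage cells was labelled with Cy3 and hybridised to Agilent arrays of design 028005, 1 for each of 5 injections, per the labels' protocols and the file headers. The deposited scanner files hold intensity values from Agilent Feature Extraction 10.7.1.1, background-subtracted by the authors' scanner software per the file headers, with no step between arrays. Flags in the deposited files are 0 or 1. The deposited series table holds log2 values that the authors had normalized between arrays. That scale was read from the values and is used only as an alternative.

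Control spots (3671 per array) and 134 to 219 outlier spots were left out. No spot was saturated. The log2 processed signal minus the array's 75th percentile was averaged over spots of a probe. Of 55681 probes, 26582 matched 1 symbol through RefSeq accessions (GRCm38.p6 annotation) and 29099 none. Where a gene had several probes (5370 genes), the brightest by mean level stood for it. A gene not above background on 1 array is given as "at least N-fold", its brighter level over the higher of its own dim level and the lowest level well above background on that array. All 5 arrays were on 1 slide. No test was run, since each group is 1 array. Named genes were the 15 largest each way above background on both arrays, the 5 largest bounds each way, up to 8 called members and the first 3 members of each of 55 lists, and 4 housekeeping genes. Genes given as examples of a group outside this rule (Xaf1, Eif2ak2, Rsad2, the Oas and the smaller Slfn values, Mafk and Hes1) were chosen after their values were seen. The members, lists and rules were chosen with earlier results of these data known. The rule on bright adjacent spots, and the groups by pattern over the 5 arrays, were added after seeing the data. The fold counting and the spot rule were tested on simulated data. Python 3.11.15, numpy 2.4.6, pandas 2.3.3, R 4.3.3 and limma 3.58.1 were used. Some genes are not reported here.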

Additional observations from a re-analysis of the deposited data

Results flagged for a closer look

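Of 13718 genes well above background on the PBS, AEPS, OVA and OVA+AEPS arrays, 334 were at least 2-fold different in the same direction with AEPS against PBS and with OVA+AEPS against OVA, and 22 in opposite directions. Among the named genes 2 were opposite. Ifna11, an interferon alpha gene with near-identical copies, was higher by 1.34 with OVA+AEPS than with OVA and lower (a difference of -1.16) with AEPS than with PBS. The probe annotated to Klra8, an NK receptor gene, was lower (a difference of -1.03) with OVA+AEPS than with OVA. It was higher by 1.01 with AEPS than with PBS. Whether it reads Klra8 or a similar gene in these mice was not tested. Neither probe lay beside bright spots. The difference between the comparisons was not tested.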

How the results depend on the processing

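Of the counts of 608 higher and 542 lower genes, 1 or both moved by over 1.5 times under 3 alternatives. With the mean signal and normexp background correction in place of the processed signal 271 were higher and 205 lower, and the cause was not tested. With genes above background on both arrays, which are fewer genes, they were 385 and 309. With no filter on dim probes 1009 were higher. Scaling to the arrays' medians, quantile normalization, the median over a gene's probes, the authors' series table and leaving out spots beside bright spots (an alternative chosen after seeing the data) kept both counts within 1.5 times. Scaling to spike-in control probes moved the median of all genes from -0.02 to 0.20 and gave 904 higher and 376 lower genes, so that 70.6% of called genes were higher in place of 52.9%. Scaling to the arrays' medians moved it to -0.12. The count of antiviral effectors, 33, lay between 31 and 38 under all 9 settings run. Of 197 named genes at least 2-fold different, 1647 of 1727 values under the alternatives were at least 2-fold in the same direction, and 1 was reversed: Smo, at -0.30 without spots beside bright spots. Naming further probes from the array files was not run, since those names are accessions. No paired analysis was possible because each group has 1 sample, and for the same reason no array could be left out. Signal over background limits the dim genes: the dimmest level well above background was -5.24 on the OVA array and -4.99 on the OVA+AEPS array.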

Other observations

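Counts for gene groups not described above stand beside 4.08% higher and 3.64% lower of all measured genes. Of 23 heat shock and unfolded protein response genes 1 was at least 2-fold higher and 1 lower: Ddit4, an inhibitor of mTORC1, was at 4.45 with OVA and 5.86 with OVA+AEPS, and Chac1, a glutathione-degrading enzyme, was lower (a difference of -1.14). Of 28 oxidative stress genes 0 were higher and 1 lower. Of 23 purinergic signalling genes 0 were higher and 2 lower, the ADP receptor genes P2ry1 (-1.84) and P2ry12 (-1.12). Of 32 cell cycle genes 0 were higher and 2 lower, Cdkn1b (-1.21) and E2f2 (-1.05). Of 20 alternative activation genes 0 passed 2-fold in either direction, with Retnla at -0.26 and Arg1 at 0.27. Mast cell markers had 0 of 18 called, with Cpa3 at 5.17 with OVA and 4.95 with OVA+AEPS but 2.98 with PBS and 2.77 with OVA+Alum.

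Plasmacytoid dendritic cell markers differed among themselves. Of 11 measured 1 was higher and 2 lower. Siglech, their defining lectin, was at 7.43 with OVA and 7.68 with OVA+AEPS on its brighter probe. Its dimmer second probe went the other way, with -1.31 and -2.75. Bst2, which is also interferon-induced, was higher by 1.43. Klk1 and Cox6a2 were lower (differences of -1.72 and -1.66), and both were lower on each AEPS array than on the other 3: Cox6a2 was at -0.39 with PBS, -2.04 with AEPS, -0.45 with OVA, -2.10 with OVA+AEPS and -0.46 with OVA+Alum.

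The remaining lists stand beside the same shares of all measured genes, 4.08% higher and 3.64% lower. Of 29 inflammasome and cell death genes 2 were higher (Nlrc5 by 1.18 and the necroptosis gene Mlkl by 1.17) and 2 lower (Gsdme, and Nlrp1b by -1.22). Of 24 complement genes 1 was higher and 2 lower, of 25 eicosanoid genes 0 were higher and 1 lower, and of 29 cholesterol genes 1 was higher and 0 lower. Of 29 lysosome and scavenging genes 1 was higher, the IgG receptor gene Fcgr1 (1.13), and 1 lower, Tfeb, the master regulator of lysosome genes (1.02 with OVA and -0.38 with OVA+AEPS). Inflammatory monocyte markers had 1 of 17 higher, the interferon-responsive Ly6a (2.16), and 1 lower. Eosinophil and basophil markers had 0 of 15 higher and 3 lower, a larger share lower than over all genes. Erythroid and platelet markers had 0 of 21 higher and 1 lower, the last from the Gp1bb probe beside bright spots.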
